A study of Mus musculus with 2 samples.

Results

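The expression of 35 genes of macrophages and other myeloid cells was examined in whole ureters of E16.5 mouse embryos, the stage at which the ureteric wall is still growing and its epithelium begins to stratify. The genes were picked by name, as genes that textbooks assign to macrophages or to leukocytes in general. Earlier results of these data were known when they were picked. They make up 35 of the 29982 genes with a value on both arrays. The study asked which transcripts change in the ureter when Pparg, the gene of a ligand-dependent nuclear receptor, is inactivated in the ureteric epithelium. Ureters of NMRI embryos were pooled by sex for RNA extraction. The data are 2 dual-colour arrays, each of which carried 1 Pparg-cKO pool against 1 control pool, array 1 from female and array 2 from male embryos. The mutants had the genotype Pax2-cre/+; Pparg(fl/fl), in which a cre recombinase driven by Pax2 sequences acts in the ureteric epithelium and its precursors. The controls were littermates without cre and carried Pparg(fl/?), in which the label leaves the other allele open. The stage label of the channel that is named for the mutant reads E14.5 on both arrays, whereas titles and protocols read E16.5.

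Macrophages colonise embryonic organs early, from precursors that arise in the yolk sac and the fetal liver, and they clear dying cells, shape vessels and survey the tissue. Their survival depends on the cytokine CSF1 and its receptor CSF1R, and their gene programme on the transcription factor PU.1, the product of Spi1. They take up particles through Fc, complement and scavenger receptors, signal through adaptor proteins with an activation motif (ITAM), digest their cargo in lysosomes and call in other leukocytes with chemokines. In a bulk sample of the ureter, RNA of these cells is a small part of a mixture of epithelium, mesenchyme, vessels and blood, and fewer macrophages cannot be told apart from less RNA per macrophage.

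The direction of the comparison is not settled. Here RNA A is the pool that carried AlexaFluor647 on array 1 and AlexaFluor555 on array 2, and RNA B is its partner. By the dye labels RNA A was control, whereas the direction described for epithelial genes in the study makes it the mutant. The deposited fold changes follow RNA A over RNA B. They make RNA A the mutant too, if their sample titles, Pparg-cKO vs control, give the direction. Since the labels and these values conflict, no genotype was attached to either RNA. Ratios are log2 of the processed signal of RNA A over that of RNA B, so that positive values are brighter in RNA A. Since the dyes were exchanged along with the sex of the pools, effects of sex and of dye cannot be told apart. Both arrays were on 1 slide and in 1 scan, 157716 probe spots per array gave in general 4 spots per probe, and the number of arrays, 2, limits the precision of every value. An exact permutation of signs over 2 arrays gives no two-sided p smaller than 0.5. The p-values from limma rest only on the spread between these arrays. That spread was drawn mostly from all tested genes (prior of 7.59 degrees of freedom) rather than from the gene itself.

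The promoters of some of these genes carry the letters that PU.1 is known to bind, a purine-rich box with the core GGAA. RefSeq (GRCm38.p6) listed promoters for 24 of the 35 genes. Within the 250 bases before the start site, GAGGAA on either strand was found for 13 of the 24 genes (54.2%), against 25.9% of all 27025 genes with a listed promoter. By promoters, this was 14 of 28 (50.0%) against 23.3% of 32851. The longer form GAGGAAGT, which contains the first, was found for 1 of the 24 genes (4.17%) against 2.79% of all genes. A match is a description of letters and not evidence of binding. The windows below were chosen because they belong to genes of different roles: 6 were brighter in RNA A on each array and the last 3 changed sides between the arrays. Each is written in the direction of its gene, and capitals mark the box, as GAGGAA or, read on the other strand, TTCCTC.
C1qb, chr4:136886201-136886257, minus strand: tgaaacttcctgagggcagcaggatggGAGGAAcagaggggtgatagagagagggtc
C1qc, chr4:136893075-136893134, minus strand: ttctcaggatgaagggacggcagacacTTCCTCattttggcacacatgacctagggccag
Cd53, chr3:106790156-106790215, minus strand: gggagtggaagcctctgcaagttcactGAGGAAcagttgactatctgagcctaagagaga
Ctss, chr3:95526595-95526654, plus strand: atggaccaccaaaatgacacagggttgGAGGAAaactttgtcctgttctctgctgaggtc
Mrc1, chr2:14229352-14229411, plus strand: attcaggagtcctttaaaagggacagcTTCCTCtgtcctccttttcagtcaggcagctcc
Ccl3, chr11:83649379-83649438, minus strand: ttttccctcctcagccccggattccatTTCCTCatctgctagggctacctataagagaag
Laptm5, chr4:130913251-130913310, plus strand: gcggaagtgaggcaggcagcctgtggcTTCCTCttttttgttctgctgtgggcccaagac
Trem2, chr17:48346334-48346393, plus strand: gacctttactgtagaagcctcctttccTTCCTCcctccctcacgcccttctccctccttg
Fcgr1, chr3:96293992-96294051, minus strand: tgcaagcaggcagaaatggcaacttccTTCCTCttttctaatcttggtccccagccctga

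The box of Mrc1 shown here lies 35 bases before the start site and is the nearest of 3 in that window. That of Cd53 begins 39 bases, that of Ccl3 33 bases and that of C1qb 30 bases before the start site. The box was not tied to 1 pattern on the arrays. It was found for 9 of the 18 genes with a listed promoter that were brighter in RNA A on each array and for 4 of the 5 that changed sides.

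Nearly all of the 35 genes were detected. A total of 34 genes were well above background in all 4 channels (both RNAs on both arrays), compared with 68.8% of all genes, and 28 reached a processed signal of 100 in all 4 channels. The exception was Cd163, a scavenger receptor for haemoglobin on mature tissue macrophages, which was well above background in 2 of 4 channels with signals between 4.73 and 6.66 and was not tested. Another 3 macrophage markers, outside the 35 genes and singled out after their values were seen, were detected too. Adgre1, which encodes F4/80, gave signals of 711 to 863, Lyve1, present on a class of tissue macrophages and on lymphatic vessels, gave 1627 to 1924, and Ms4a7 gave 491 to 692. Markers of other leukocytes were detected to different extents. All 9 neutrophil genes and 8 of 10 genes of dendritic cells and MHC class II were tested. Of 12 lymphocyte markers, 4 were tested, and Cd3d, Pax5 and Ncr1 were above background in no channel, as were Itgax and Xcr1 of dendritic cells.

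Most macrophage genes were slightly brighter in RNA A, and none passed a threshold. Of the 34 tested genes, 26 (76.5%) were brighter in RNA A on each array, where the share among all 21429 tested genes was 21.6%. Only Cd14 was brighter in RNA B on both arrays, against a share of 17.4%. The other 7 genes changed sides. The shares of 21.6% and 17.4% are also the background for the counts by list given below. The median log2 ratio of the 34 genes was 0.23 on array 1 and 0.24 on array 2, and 0.25 for the mean of both (1.19-fold), whereas the medians of all tested genes were -0.00038, 0.03 and 0.01. On array 1, 27 of the 34 genes were brighter in RNA A (background 50%), and on array 2, 32 were (background 54.2%). These genes are read from the same 4 RNA pools and largely from the same cells, so that they do not count as independent measurements of the difference between the RNAs. They were also chosen with earlier results of these data known, so the counts describe the list and test nothing.

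**Figure D1:**
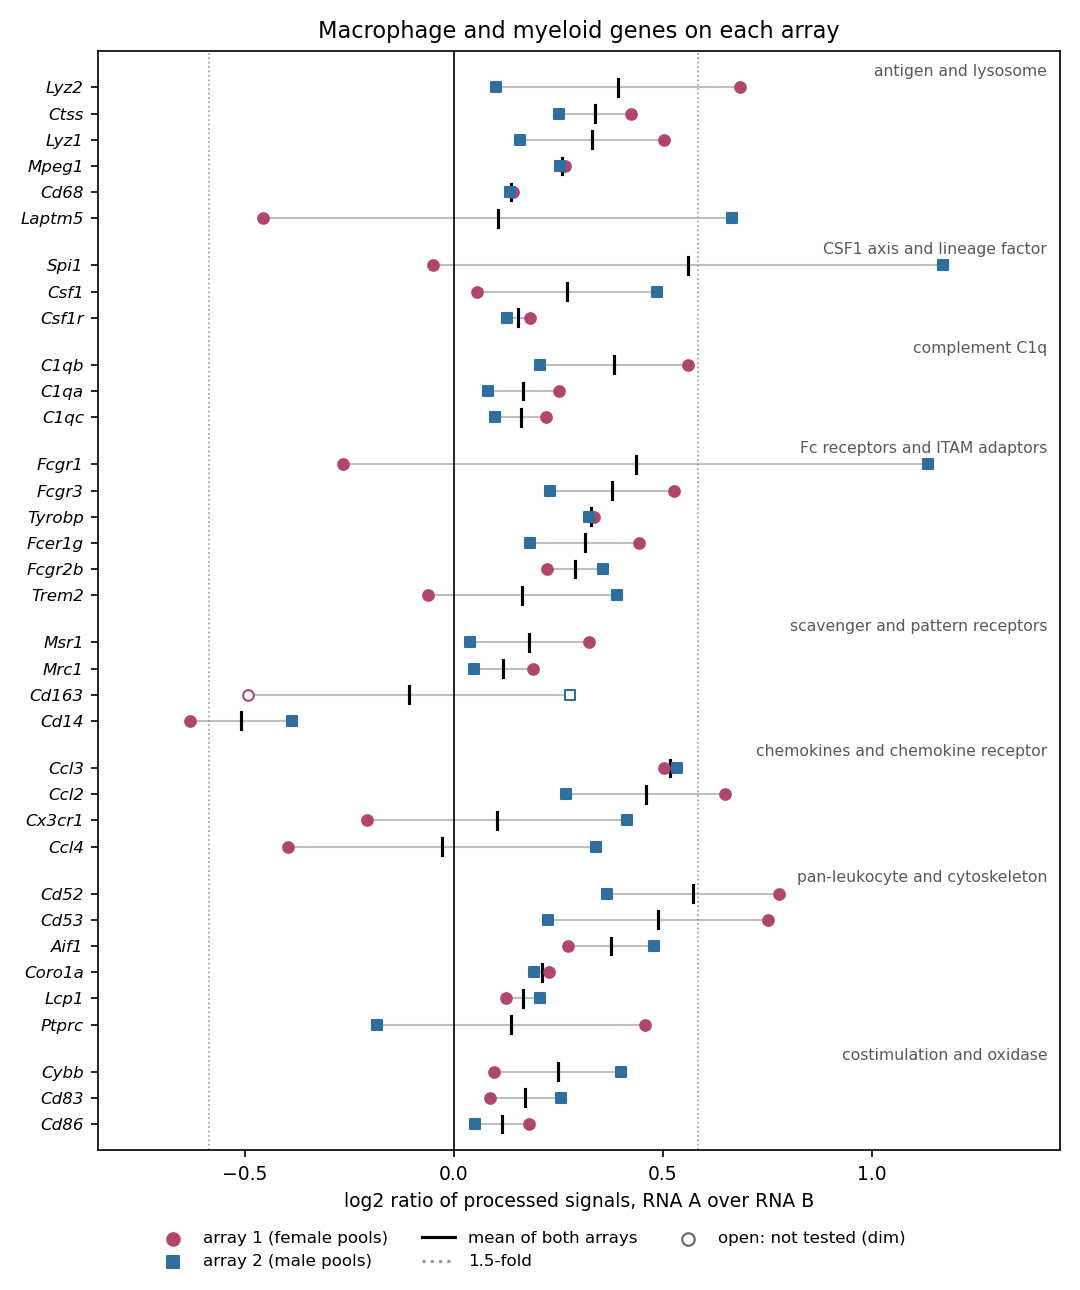
Log2 ratio of processed signals, RNA A over RNA B, for each of the 35 genes on array 1 (circles) and array 2 (squares), with the mean of both as a vertical bar, dotted lines at 1.5-fold and open symbols for Cd163, which was not tested. Circles and squares lie right of 0 for 26 genes, Cd14 alone lies left of 0 on both arrays among the tested genes, and no tested gene passes a dotted line on both arrays.

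The size of the differences stayed below the criterion for a changed gene. None of the 35 genes was at least 1.5-fold brighter in the same RNA on both arrays with a signal of 100, where 0.157% of all genes passed toward RNA A, 0.23% toward RNA B and 0.43% in opposite directions. By array, 4 genes exceeded 1.5-fold toward RNA A on array 1 (background 2.68%) and 3 on array 2 (background 3.47%), and these were different genes: Cd52, Cd53, Lyz2 and Ccl2 on array 1, and Spi1, Fcgr1 and Laptm5 on array 2. Toward RNA B, Cd14 exceeded 1.5-fold on array 1 (background 4.91%) and no gene on array 2 (background 3.71%). By limma with Benjamini-Hochberg adjustment over all tested genes, 0 of the 34 genes had an adjusted p below 0.05 (background 0.126% toward RNA A and 0.187% toward RNA B), and the lowest adjusted p was 0.985, for Cd52. Without adjustment, limma gave a p below 0.05 for 3 of the 34 genes (8.82%), against 3.78% of all tested genes: Cd52 and Ccl3 toward RNA A (background 1.68%) and Cd14 toward RNA B (background 2.1%).

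For 23 of the 34 genes, both signals of RNA A exceeded both signals of RNA B, which held for 14.1% of all tested genes. This comparison crosses the arrays, so that overlap or its absence also depends on the level of each array, unlike the ratios within an array. The reverse was found for Cd14 alone, against 10.1% of all tested genes. Among the 28 tested genes whose brighter RNA reached a signal of 100 on each array, 24 were brighter in RNA A on both (background 19.3%). Of the 6 dimmer genes, 2 were, namely Ccl3 and Cybb, and 4 changed sides.

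Among surface proteins of leukocytes in general, Cd52 had the highest mean ratio of the 35 genes, and Cd53 was close to it. Cd52 encodes a small GPI-anchored glycoprotein of lymphocytes and myeloid cells (probe at chr4:133649505-133649564, mm9). Its signal was 313 in RNA A against 182 in RNA B on array 1, and 297 against 231 on array 2. Both values of RNA A were above both values of RNA B, and the mean log2 ratio was 0.57 ± 0.29 (SD, n = 2 arrays; limma adjusted p = 0.985). Cd53, a tetraspanin of leukocytes, gave 284 and 169 on array 1 and 259 and 221 on array 2, with a mean log2 ratio of 0.49 ± 0.37. As for Cd52, the groups did not overlap and most of the difference came from array 1.

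Ptprc, the gene of the pan-leukocyte phosphatase CD45, did not follow these genes. It was dim, with 60.3 in RNA A against 43.9 in RNA B on array 1 but 35.4 and 40.2 on array 2, so that the groups overlapped. Aif1, which encodes the calcium-binding protein IBA1 used to stain macrophages and microglia, gave 837 and 692 on array 1 and 1008 and 723 on array 2. Its mean log2 ratio was 0.38 ± 0.15, and the larger difference was on array 2. Coro1a and Lcp1, which encode the actin-binding proteins coronin 1A and plastin-2 of leukocytes, had mean log2 ratios of 0.21 ± 0.02 and 0.17 ± 0.06, with no overlap between the RNAs.

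Lysosomal and antigen-handling genes were brighter in RNA A on each array for 5 of 6 genes. Lyz2, the lysozyme gene of macrophages and neutrophils, gave 1197 in RNA A against 745 in RNA B on array 1, and 960 against 895 on array 2. This gave log2 ratios of 0.69 and 0.10 (mean 0.39 ± 0.41), a spread as large as the mean. Its neighbour Lyz1 gave 0.50 and 0.16. The main probes of both lysozyme genes share no run longer than 6 bases, and 21 of 55 bases match in their best alignment. The match of each probe to the transcript of the other gene was not examined.

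Ctss encodes cathepsin S, which cleaves the invariant chain of MHC class II, and gave 1433 and 1068 on array 1 and 1318 and 1107 on array 2. The groups did not overlap, and the mean log2 ratio was 0.34 ± 0.12. Mpeg1, which encodes the pore-forming protein perforin-2 of phagocytes, had nearly the same log2 ratio on the arrays, 0.27 and 0.25. Cd68, the gene of a lysosomal membrane glycoprotein widely used as a macrophage marker, was equally even with 0.14 and 0.13 but its signals were lower on array 1 (637 in RNA A against 578 in RNA B) than on array 2 (757 and 690), so that the groups overlapped. Laptm5, a lysosomal membrane protein of haematopoietic cells, changed sides, with 55.3 in RNA A against 75.8 in RNA B on array 1 and 95.0 against 59.8 on array 2.

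**Figure D2:**
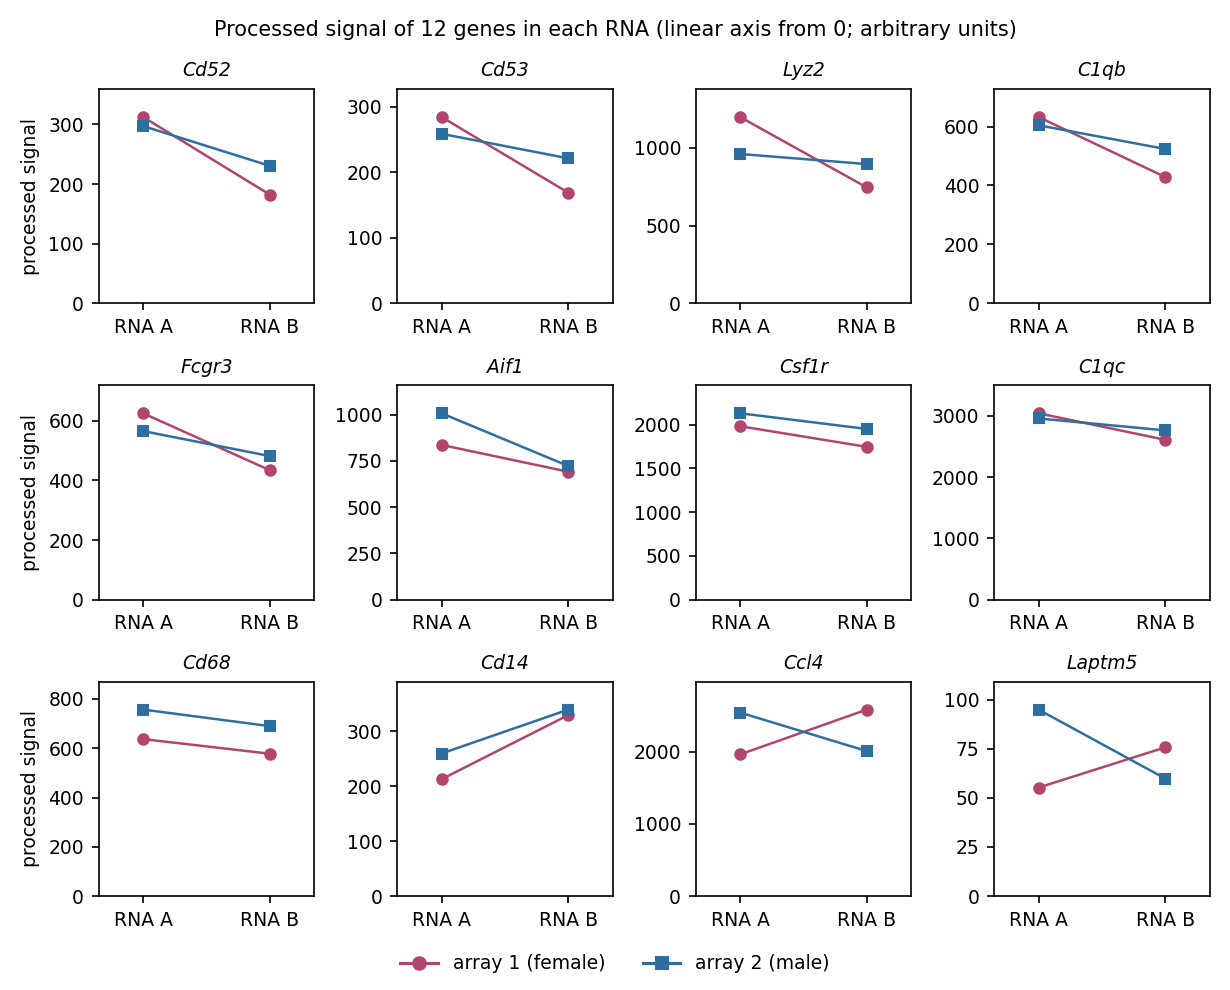
Processed signal (arbitrary units, linear axis from 0) in RNA A and RNA B of 12 genes, with circles for array 1 and squares for array 2. Lines fall from RNA A to RNA B on both arrays for the first 9 genes, climb for Cd14, and cross in opposite directions for Ccl4 and Laptm5.

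The receptor of the lineage differed little between the RNAs, its ligand more on array 2 than on array 1. Csf1r gave 1981 in RNA A against 1745 in RNA B on array 1, and 2129 against 1949 on array 2. All values of RNA A lay above those of RNA B, but by only 1.11-fold on average (mean log2 ratio 0.15 ± 0.04, limma adjusted p = 1.0). Its ligand Csf1, which is made by stromal and epithelial cells rather than by macrophages alone, gave 738 and 709 on array 1 and 910 and 649 on array 2. The ratio of Csf1 thus came mainly from array 2, with 0.06 and 0.49. Spi1 was dim, and its ratio rested on array 2, where 31.2 in RNA A stood against 13.8 in RNA B, while array 1 gave 17.7 and 18.3.

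Complement C1q, the recognition protein of the classical pathway, is assembled from 3 chains whose genes lie side by side on chromosome 4 and which tissue macrophages make in quantity. All 3 genes were brighter in RNA A on each array. C1qb gave 632 and 429 on array 1 and 604 and 524 on array 2 (mean log2 ratio 0.38 ± 0.25). C1qc gave 3041 and 2608 on array 1 and 2957 and 2761 on array 2 (0.16 ± 0.09). The difference was larger on array 1 for each chain. For C1qa, with 301 and 253 on array 1 and 363 and 343 on array 2 (0.17 ± 0.12), the groups overlapped, since array 2 was brighter in both RNAs.

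Of the 6 Fc receptor and adaptor genes, 4 were brighter in RNA A on each array. Fcer1g encodes the common gamma chain of activating Fc receptors, which macrophages share with mast cells, and gave 2086 and 1535 on array 1 and 2006 and 1766 on array 2. Tyrobp encodes the ITAM adaptor DAP12 and gave 1748 and 1386 on array 1 and 1909 and 1525 on array 2. Both sets of signals were free of overlap, and the mean log2 ratios were 0.31 ± 0.18 and 0.33 ± 0.01. The low-affinity receptor gene Fcgr3 had a mean log2 ratio of 0.38 ± 0.21 and the inhibitory receptor gene Fcgr2b one of 0.29 ± 0.09.

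The remaining 2 genes of this group changed sides. Trem2, a lipid receptor that signals through DAP12, gave 381 in RNA A against 397 in RNA B on array 1, and 515 against 393 on array 2. Fcgr1, the high-affinity receptor for IgG, was dim, with 17.9 and 21.5 on array 1 and 27.3 and 12.4 on array 2. In both cases only array 2 was clearly brighter in RNA A.

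Cd14 was the exception to the common direction. The gene encodes a co-receptor for bacterial lipopolysaccharide that monocytes and macrophages carry, and that epithelial cells can also make. Its signal was 213 in RNA A against 329 in RNA B on array 1, and 259 against 339 on array 2. Both values of RNA B exceeded both values of RNA A, with a mean log2 ratio of -0.51 ± 0.17 (limma adjusted p = 1.0). The uroplakin genes of the urothelium were brighter in RNA B as well (see the values by gene list), and their part in the result for Cd14 was not tested. The other tested scavenger receptor genes were slightly brighter in RNA A on each array. Mrc1, the mannose receptor, gave 3925 and 3441 on array 1 and 3456 and 3344 on array 2. Msr1, the class A scavenger receptor, had log2 ratios of 0.32 and 0.04.

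The chemokine genes were not uniform. Ccl2, which draws monocytes through CCR2, gave 317 in RNA A against 202 in RNA B on array 1, and 325 against 269 on array 2, without overlap (mean log2 ratio 0.46 ± 0.27). Ccl3, an inflammatory chemokine, was dim but even between the arrays, with 36.5 and 25.8 on array 1 and 42.7 and 29.5 on array 2 (0.52 ± 0.02). Its spots on array 2 had an SD of 0.28, and its mean log2 ratio was 0.30 with normexp and loess. Its neighbour Ccl4 was brighter in RNA B on array 1, with 1962 in RNA A against 2584 in RNA B, and brighter in RNA A on array 2, with 2543 and 2008. The fractalkine receptor gene Cx3cr1, a marker of tissue macrophages, showed the same change of side, with 639 and 738 on array 1 and 860 and 646 on array 2.

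Genes of costimulation and of the oxidative burst completed the list, and all 3 were brighter in RNA A on each array. Cybb, which encodes the catalytic subunit of the phagocyte NADPH oxidase, had log2 ratios of 0.10 and 0.40 at signals of 33.7 to 44.5. Cd83 and Cd86, markers of activated antigen-presenting cells, had mean log2 ratios of 0.17 ± 0.12 and 0.12 ± 0.09.

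The genes that changed sides did so almost all in the same way. Of the 7 genes, 6 were brighter in the green dye on both arrays, that is in RNA B on array 1 and in RNA A on array 2: Ccl4, Cx3cr1, Fcgr1, Laptm5, Spi1 and Trem2. This pattern was found in 17.6% of the 34 genes and in 32.6% of all tested genes. The opposite pattern, red on both arrays, was found for Ptprc alone, against a background of 28.4%. Among all 34 genes the median absolute deviation of either array from the mean of both was 0.14 on the log2 scale (0.15 for all tested genes), whereas the median absolute mean ratio was 0.27 (0.10 for all tested genes). The spread of the spots of a probe within an array was smaller, with median SDs of 0.04 on both arrays. The order of the genes was not kept between the arrays: across the 34 genes, which are not independent replicates, Pearson's r between the ratios of array 1 and array 2 was -0.21 and Spearman's rho -0.25, given as a description. Over all 21429 tested genes these values were -0.05 and -0.25. Of the 26 genes that were brighter in RNA A on each array, 19 had the larger ratio on array 1 and 7 on array 2.

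Several probes were present for 9 of the 35 genes. All 3 probes of Csf1 were brighter in RNA A on each array, with mean log2 ratios of 0.27, 0.60 and 0.58. The probes of Csf1r did not behave alike: beside the brightest probe, another gave 0.36 and 0.01 on the arrays, and one that lies upstream in the transcript gave 0.52 on array 1 and -0.73 on array 2. For Cx3cr1, the brightest probe and a probe that overlaps it gave nearly equal ratios on each array, whereas the probe elsewhere in the transcript gave 0.09 and -0.08. The second probes of Msr1 (mean log2 ratio 0.41), Cd68 (0.28) and Lcp1 (0.20) were brighter in RNA A on each array like the first, and that of Laptm5 changed sides like the first, with -0.18 and 0.67. The second probes of Cd86 and Mpeg1 were well above background in 0 and 1 of the 4 channels.

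**Figure D3:**
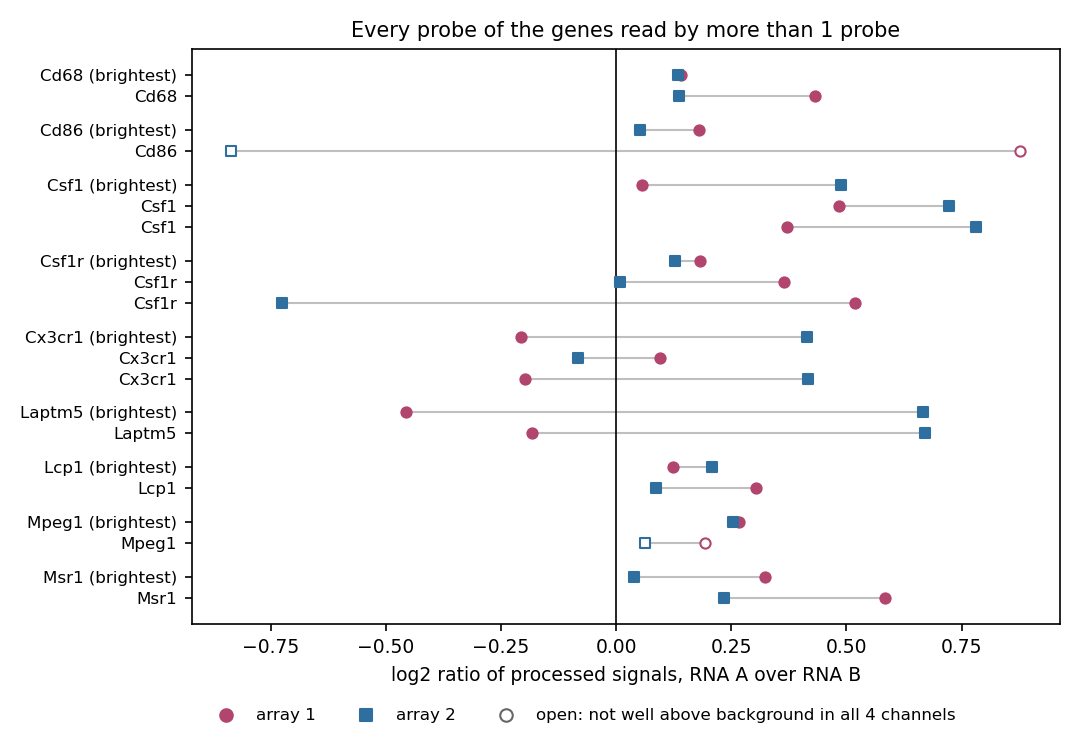
Log2 ratio of RNA A over RNA B on array 1 (circles) and array 2 (squares) for every probe of the 9 genes with several probes, the brightest probe of each gene first, with open symbols for probes not well above background in all 4 channels. The third probe listed for Csf1r spans 0.52 to -0.73, and the 3 probes of Csf1 stay right of 0.

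The arrays of the female and the male pools were also compared for signal. Averaged over both RNAs and set against the median shift of all genes between the arrays, the 34 genes had a median difference of -0.03 (log2, array 2 minus array 1), and 16 of them were higher on array 2. Single genes ran from -0.53 for Ptprc to 0.28 for C1qa, with an SD of 0.16 across the 34 genes. Sex could not be tested with 1 array each.

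Other genes of the macrophage programme were examined as 4 further lists of 76 genes, of which 66 were tested. For the mean of both arrays, the median of each list lay on the side of RNA A. By array, that of the transcription factors changed sides, with -0.18 on array 1 and 0.32 on array 2. No gene passed the 1.5-fold criterion or limma's adjusted p. Of the 66 genes, 34 (51.5%) had RNA A brighter on both arrays and 6 (9.09%) had RNA B brighter. The shares among all tested genes were 21.6% and 17.4%. The median log2 ratio of the 66 genes was 0.08 on array 1 and 0.23 on array 2, against -0.00038 and 0.03 for all tested genes. For the mean of both arrays it was 0.15, against 0.01 for all tested genes. Among 27 surface genes, 14 had RNA A brighter on both arrays and 4 had RNA B brighter. The highest mean log2 ratios were those of Timd4 (0.51, at dim and overlapping signals of 5.88 to 12.9), a receptor for dying cells, and Ccr2 (0.49), the receptor of CCL2, whose own gene was among those brighter in RNA A. Csf2ra (-0.26), a chain of the GM-CSF receptor, and Cd84 (-0.24), an adhesion receptor of leukocytes, were lowest.

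Signalling molecules below Fc and integrin receptors had a median log2 ratio of 0.15. Of 15 tested, 11 had RNA A brighter on both arrays and 0 had RNA B brighter. Rac2, the small GTPase that drives the phagocyte oxidase, had a mean log2 ratio of 0.40, and Vav1, a guanine nucleotide exchange factor, one of 0.37, the latter from array 2 alone (0.01 and 0.73). The kinase gene Syk (0.07) was lowest. Among transcription factors of the lineage, where Spi1 itself was brighter in the green dye on both arrays, 3 of 12 were brighter in RNA A on each array, and the other 9 were all brighter in the green dye on both, where the shares among all tested genes were 21.6% and 32.6%. Ikzf1 (0.36) and Tfec (0.30) had the highest mean log2 ratios and Cebpb (-0.09) and Irf5 (0.01) the lowest.

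Genes of macrophage activation were mostly dim and spread widely. Of 18 genes, 12 were tested, with 6 on the side of RNA A on both arrays and 2 on that of RNA B. The interferon-induced chemokine gene Cxcl10 (mean log2 ratio 0.69, signals of 13.6 to 27.3) and the cytokine gene Tnf (0.59, signals of 6.58 to 12.9) were highest. Chil3 (-0.59), a chitinase-like protein of alternatively activated macrophages, and the cytokine gene Il6 (-0.30) were lowest. The lowest limma adjusted p of these 18 genes was 0.731, for Cxcl10.

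Among markers of other cells, a pair of mast cell protease genes were more than 1.5-fold brighter in RNA A on each array. Of 8 mast cell genes, 5 were tested, of which 3 were brighter in RNA A on each array and 2 changed sides. Their median log2 ratio of 0.54 is that of the dim gene Fcer1a (-0.15 and 1.23 on the arrays), while Kit (0.09) and Tpsb2 (0.01) were near even; these 3 are named beyond the rule. Cpa3, the carboxypeptidase of mast cell granules, gave 795 in RNA A against 281 in RNA B on array 1, and 651 against 288 on array 2 (mean log2 ratio 1.34, limma adjusted p = 0.047). The limma call of Cpa3 was lost with normexp and loess (adjusted p = 0.178), with loess alone (0.077), with the deposited table (0.922) and without the filter on dim probes (1.0), over a range from 0.0038 to 1.0. The chymase gene Cma1 gave 131 and 51.0 on array 1 and 104 and 58.9 on array 2. Both passed the 1.5-fold criterion toward RNA A, as did 0.157% of all genes. By limma, only Cpa3 of the mast cell genes was called (background 0.126% toward RNA A). The summed signal of the 8 genes was 1773 and 1569 in RNA A and 1140 and 1103 in RNA B. Most of this difference came from Cpa3 and Cma1. Ms4a2, a chain of the IgE receptor, was above background in no channel. Fcer1g and the general leukocyte genes Cd52, Cd53, Coro1a, Lcp1, Laptm5 and Ptprc are also expressed by mast cells, and the part of mast cells in their ratios was not tested.

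Genes of endothelium and of red blood cells were centred near 0, whereas the median of the neutrophil genes lay on the side of RNA B. Of 10 endothelial genes, 0 were brighter in RNA A on each array, 1 was brighter in RNA B and 9 changed sides (median log2 ratio 0.08, from -0.29 for Egfl7 and -0.12 for Cdh5 to 0.22 for Emcn and 0.23 for Tek). Of 9 red blood cell genes, 2 had RNA A brighter on each array, 2 had RNA B brighter and 5 changed sides, with a median of 0.02. Of 9 neutrophil genes, 2 had RNA A brighter on each array, 5 had RNA B brighter and 2 changed sides. Their median log2 ratio was -0.27 for the mean of both arrays, but -0.03 on array 1 and -0.15 on array 2. Ngp (-0.45) and Ltf (-0.40) were lowest and S100a8 (0.14) and Prtn3 (0.25) highest. The summed neutrophil signal was 7961 and 4572 in RNA A and 5921 and 8308 in RNA B, with overlap. Dendritic cell and MHC class II genes centred on 0.04 (H2-Ab1 -0.24, Ciita -0.22, Ccr7 0.20, H2-Aa 0.25), and the 4 tested lymphocyte genes on -0.09 (Cd4 -0.25, Cd79a -0.12, Cd3e -0.06, Cd79b 0.32).

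**Figure D4:**
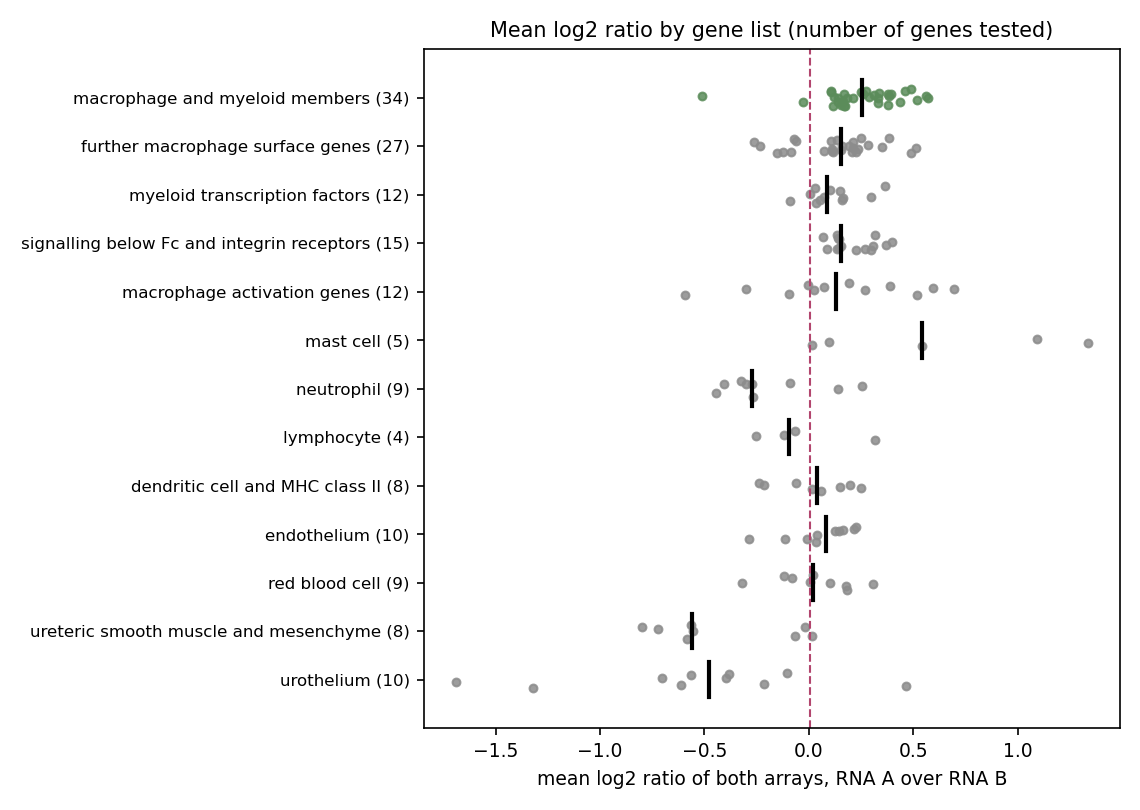
Mean log2 ratio of both arrays, RNA A over RNA B, for the tested genes of each list (points, with a random vertical offset), the median of each list (black bar) and the median of all tested genes (dashed line). The medians of the macrophage and myeloid genes (0.25) and of the mast cell genes (0.54) lie right of the dashed line, those of the urothelium (-0.48) and of smooth muscle and mesenchyme (-0.56) left of it.

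Many genes of the tissue around the macrophages were brighter in RNA B. Among all tested genes, 17.4% were brighter in RNA B on each array and 21.6% in RNA A. Of 10 urothelial genes, 6 were brighter in RNA B on each array, 3 changed sides and 1, Krt5 (0.47, named after its value was seen), was brighter in RNA A. Their median log2 ratio was -0.48. Upk3b (-1.69, limma adjusted p = 0.020), Upk1a (-1.32, limma adjusted p = 0.045) and Upk3a (-0.70) passed the 1.5-fold criterion toward RNA B. Toward RNA B, 0.23% of all genes passed this criterion and 0.187% of all tested genes passed limma's threshold. The limma calls of Upk3b and Upk1a were lost with normexp and loess (adjusted p = 0.118 and 0.177), with the deposited table (0.865 for both) and without the filter on dim probes (1.0 for both), and that of Upk1a also with loess alone (0.071). Over all alternatives the adjusted p ran from 0.00050 to 1.0 for Upk3b and from 0.0038 to 1.0 for Upk1a. Of 8 genes of ureteric smooth muscle and mesenchyme, 5 were brighter in RNA B on each array and 3 changed sides, with a median of -0.56, from Myh11 (-0.80) and Cnn1 (-0.72) to Pdgfra (-0.02) and Tbx18 (0.01). Pparg itself gave 11295 in RNA A against 7430 in RNA B on array 1, and 12888 against 7872 on array 2. It passed the 1.5-fold criterion toward RNA A, as did 0.157% of all genes, but not limma's threshold (mean log2 ratio 0.66, limma adjusted p = 0.615). The study reports that cre deletes only some exons and that a shortened Pparg transcript is still made in the mutant epithelium. The signal of this gene therefore does not show which RNA is the mutant. Because array signals are relative, a lower share of urothelial or muscle RNA in RNA A could not be told apart from a higher share of leukocyte RNA.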

How the data were processed

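Dual-colour arrays of ureter RNA from pools of E16.5 embryos were analysed, 1 array with female pools (replicate 1) and 1 with male pools (replicate 2), with the dyes exchanged. Groups followed the labels. The deposited processed intensities come, per the file headers, from Feature Extraction 10.7.3.1, with which the authors' values were background-subtracted and dye-normalised within each array by a linear step and LOWESS, so that ratios of dim probes depend on that step. The deposited log10 ratio served as a check of the dyes; for 88.9% of spots it differed from the log10 of red over green processed intensity by less than 0.001. The authors deposited a table of signed fold changes, a score whose direction is given only by sample titles that read Pparg-cKO vs control. It followed RNA A over RNA B (Pearson's r across probes 0.996 on array 1 and 0.997 on array 2) and served as an alternative. No comparison columns of the authors were used otherwise.

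Control spots and spots flagged as outliers (5705 and 5579 on the arrays) were removed, and the log2 signal of a probe is the mean of its remaining spots. No spot was saturated. Probes were named through RefSeq (GRCm38.p6) for 28328 of 39429 probes, and the others kept the name in the file. Positions of probes are in mm9, as in the files. For each gene the probe was taken whose log2 signal, averaged over the 4 channels, was highest. Genes well above background in at least 0.5 of kept spots on both arrays in at least 1 RNA were tested (21429).

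The study's filter was read as a ratio of 1.5-fold or more toward the same RNA on each array, where the brighter RNA has a signal of 100 or more. limma 3.58.1 in R 4.3.3 (lmFit with an intercept, eBayes) was applied to the 2 log2 ratios with Benjamini-Hochberg adjustment over all tested genes at 0.05, after a test on simulated data. The data.table package (version 1.17.8) and, for plots, matplotlib (version 3.10.9) were used. The genes and lists were chosen with earlier results of these data known. Named are all 35 genes, Pparg, and of each further list the genes past the filter or limma's threshold or, where none or more than 3 passed, the 2 highest and the 2 lowest by mean log2 ratio. Some genes that this rule names are not reported here. Adgre1, Lyve1, Ms4a7 and the markers above background in no channel were named beyond that rule. Alternatives were normexp with an offset of 50 and loess, loess of processed signals alone, median centring, the deposited table, the mean of all probes, other filters and thresholds, an intensity trend, and leaving out each array. The deviation between the arrays under other scalings was added after seeing the data. Promoter letters were searched in RefSeq sequence on both strands.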

Additional observations from a re-analysis of the deposited data

Results flagged for a closer look

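For 7 genes the array of the female pools and the array of the male pools gave log2 ratios of opposite sign. The ratio on array 2 exceeded that on array 1 by 1.40 for Fcgr1, 1.22 for Spi1, 1.12 for Laptm5, 0.74 for Ccl4, 0.62 for Cx3cr1 and 0.45 for Trem2, and for Ptprc the difference was -0.64. These differences were not tested, because there is 1 array per sex, and sex and dye cannot be told apart. Fcgr1, Spi1, Laptm5 and Ptprc had signals below 100 in every channel, whereas Ccl4, Cx3cr1 and Trem2 had signals of at least 381.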

How the results depend on the processing

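The count of 26 genes brighter in RNA A on both arrays was 27 with normexp and loess, 26 with loess on the processed signals, with median centring or without the filter on dim probes, and 24 with a signal of at least 100 or with the mean of all probes. The 26 genes all stayed on that side under the 3 other scalings, and 24 of them with the mean of all probes, where Csf1r and Cd86 changed sides. The median log2 ratio was 0.19 with normexp and loess, 0.24 with median centring, 0.24 with a signal of at least 100 and 0.27 with the mean of all probes, and 0.23 to 0.24 with 1 array left out. With normexp and loess, the mean log2 ratio was lower for each of the 6 tested genes with a signal below 100. It was 0.30 instead of 0.56 for Spi1, 0.30 instead of 0.52 for Ccl3 and 0.19 instead of 0.44 for Fcgr1. For Cybb it was 0.15 instead of 0.25, for Ptprc 0.10 instead of 0.14 and for Laptm5 0.09 instead of 0.11. No gene of the 35 was called by limma under any alternative. Over all genes, limma's 27 calls toward RNA A and 40 toward RNA B became 1 and 0 with normexp and loess, 8 and 20 with loess, and 0 and 0 when the deposited table was used or when dim probes were kept; the cause was not tested. At 1.3-fold, 1 of the 35 genes, Cd14, passed toward RNA B. With 1 array left out and the signal threshold of 100 kept, 0 to 4 passed 1.5-fold toward RNA A and 0 to 1 toward RNA B, the higher counts on array 1. Ratios with 1 array left out ran from -0.40 to 0.34 for Ccl4, -0.21 to 0.41 for Cx3cr1, -0.46 to 0.67 for Laptm5, -0.18 to 0.46 for Ptprc, -0.062 to 0.39 for Trem2, -0.26 to 1.14 for Fcgr1, -0.050 to 1.17 for Spi1 and -0.49 to 0.28 for Cd163. The ratios within an array already pair the RNAs of a replicate number; beyond this no paired analysis was possible because a further block by replicate number leaves no residual degree of freedom. The number of arrays, and for 6 tested genes a signal below 100, limit what can be seen.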
